A study of Mus musculus with 6 samples.

Results

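The C-type lectin and Fc receptor genes of mouse lung tumors were examined in tumors that grew in lungs with interstitial pneumonia (IP + LC model) and in tumors that grew without it (LC model). Members were chosen by symbol and biotype alone: a protein-coding gene whose symbol began with Clec, a number and a letter, with Fcgr, or with Fcer1. This rule gave 38 members of the 31130 genes in the tables, 24 of them on chromosome 6 and 5 on chromosome 1. All 6 tumors came from female C57BL/6 mice of 6 to 8 weeks, labelled wild type, that had received Lewis lung carcinoma cells (LLC, a mouse lung cancer line, here with a fluorescent marker) in the left lung on day 14. Mice of the IP + LC model (3 tumors) had received bleomycin, which damages the alveoli and is used to induce fibrosis, at 2.0 mg/kg by oropharyngeal aspiration 14 days before the cells. In the LC model (3 tumors), no bleomycin was given. Whole tumor tissue was collected on day 21, so the libraries held cancer cells of a single line together with the host's leukocytes, vessels, stroma and adjacent lung, although the labels call the cell type lung cancer cells.

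C-type lectins carry a domain that in many members binds sugars, and in others binds proteins or lipids of microbes, dying cells or neighboring cells. Fc receptors bind the constant part of antibodies. Many members of both families signal through an ITAM, a short tyrosine motif on the adaptors Fcer1g or Tyrobp that recruits the kinase Syk, whereas others carry an inhibitory ITIM that recruits the phosphatases Ptpn6 and Inpp5d. In the lung, most of these receptors mark macrophages, monocytes, neutrophils or dendritic cells, while Clec14a and Clec1a are found on endothelium, Fcgrt in endothelium, epithelium and macrophages, and Clec3b encodes a secreted protein.

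Each value is a number of unique molecular identifiers (UMIs), which count molecules of RNA at the 3′ end of transcripts. CPM is this number brought to a common library size by TMM scaling. A gene was called when its adjusted p in edgeR's quasi-likelihood test, adjusted over all 11240 genes with enough UMIs, was below 0.1. The libraries held 592733 UMIs in LC replicate 1 and 1336919 to 1631066 in the others. LC replicate 1 also stood apart in content, with 934 UMIs of Actb against 22045 to 49105 elsewhere, and with C1qa, a macrophage gene, at 568 CPM against 157 and 110 CPM in the other LC tumors and 585 to 792 CPM in the IP + LC tumors. For this reason, values without this library are given beside those of the members.

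Of the 38 members, 23 had enough UMIs to be tested. Fcgr4 and Fcgr1, 2 activating receptors for IgG, were 5.45 and 5.36 times higher in the IP + LC tumors, and Fcgr3, Clec12a, Clec4d and Clec5a were higher by 1.74 to 2.51 times. Clec14a was 7.19 times lower, Clec1a 5.13 times lower, Clec3b 4.87 times lower and Fcgrt 1.71 times lower. In all, 6 members were called higher (26.1% of those tested, against 16.8% of all tested genes) and 4 were called lower (17.4%, against 19.6%), so the share of lower calls was near that of the whole table. In either direction, 10 of 23 were called, against 36.4% of all tested genes. The other 13 did not pass. For the 23 tested members, the median log2 fold change was 0.61, against 0.02 over all tested genes, and 14 of the 23 were positive. The groups did not overlap in 5 members in the higher direction and in 4 in the lower, where 21.6% and 21.5% of all tested genes did not overlap (43.1% in either direction). Without LC replicate 1, 12 members were higher and 6 lower of 25 tested, where 28.3% and 28.7% of all tested genes were called. No call in the fit to all 6 tumors was lost without this library, and Fcer1g, Fcgr2b, Clec4n, Clec4e, Clec4a1, Clec4a2, Clec9a and Clec1b were gained.

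**Figure D1:**
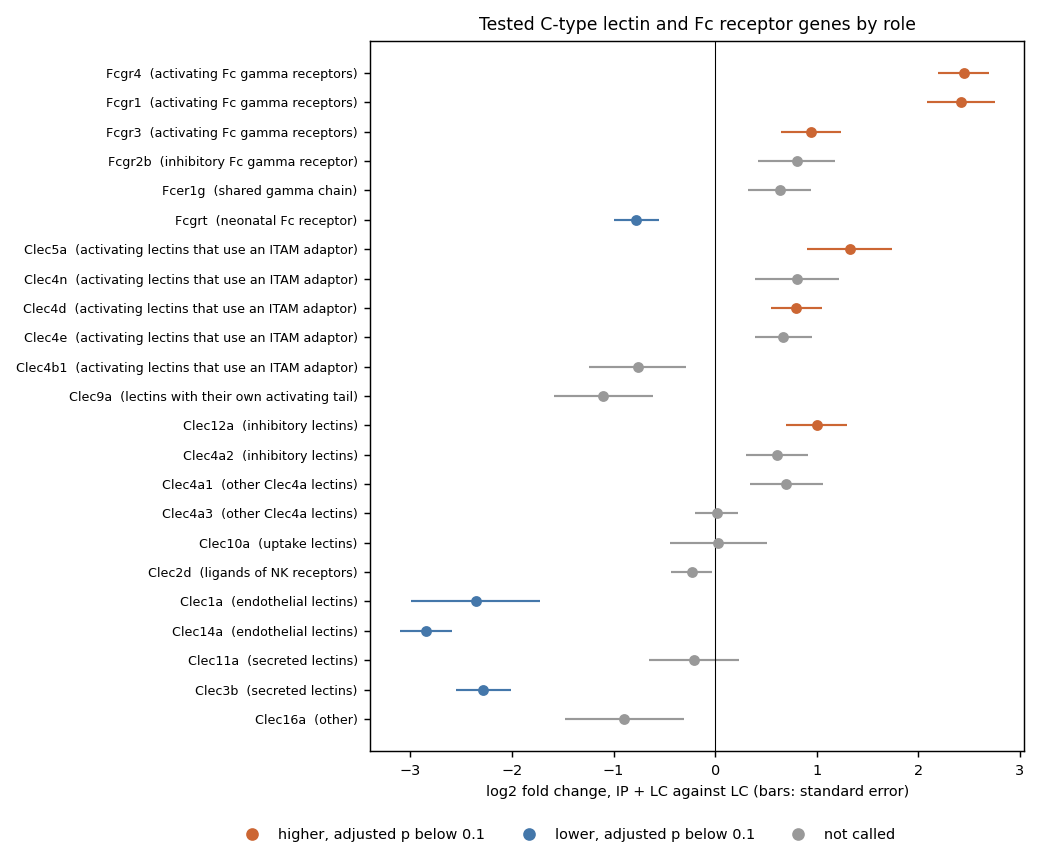
Log2 fold change (IP + LC against LC, x axis) of the 23 tested members, arranged by role, with bars for the standard error and colors for the call at an adjusted p below 0.1. The 3 activating Fc gamma receptors lie between 0.94 and 2.45, and the 2 endothelial lectins lie at -2.36 and -2.85.

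Among called members with a promoter entry, the upstream sequences of the 3 with the smallest p-values are printed because their genes carried the largest differences in each direction. They are the 250 bases before the RefSeq start site on GRCm38.p6, read on the gene's own strand, with Clec14a at chr12:58269259-58269508 (minus strand), Fcgr4 at chr1:171018676-171018925 (plus strand) and Fcgr1 at chr3:96293970-96294219 (minus strand). Capitals mark matches to 3 motifs searched on both strands: the PU.1-type site GAGGAA (read as TTCCTC on the other strand), the interferon-stimulated response element (GAAA, any 2 bases, GAAA), and the gamma-interferon activation site TTCNNNGAA.
Clec14a: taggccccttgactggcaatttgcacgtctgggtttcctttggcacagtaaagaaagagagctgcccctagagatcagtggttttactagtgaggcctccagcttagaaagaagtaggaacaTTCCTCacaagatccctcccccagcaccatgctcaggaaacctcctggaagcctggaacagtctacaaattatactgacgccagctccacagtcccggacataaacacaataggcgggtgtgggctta
Fcgr4: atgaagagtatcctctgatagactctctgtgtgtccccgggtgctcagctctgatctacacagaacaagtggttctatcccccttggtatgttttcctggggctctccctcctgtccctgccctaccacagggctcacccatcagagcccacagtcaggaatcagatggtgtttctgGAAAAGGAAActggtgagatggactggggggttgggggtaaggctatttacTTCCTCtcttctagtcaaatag
Fcgr1: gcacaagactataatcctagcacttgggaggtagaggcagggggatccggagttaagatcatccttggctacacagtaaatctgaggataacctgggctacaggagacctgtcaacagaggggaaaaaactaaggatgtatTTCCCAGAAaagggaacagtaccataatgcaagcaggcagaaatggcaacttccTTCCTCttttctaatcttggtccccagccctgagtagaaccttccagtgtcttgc

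The PU.1-type match began 22 bases before the start in Fcgr4, 55 bases in Fcgr1 and 128 bases in Clec14a. In Fcgr4, GAAAAGGAAA began 73 bases before the start, and in Fcgr1, TTCCCAGAA began 109 bases before it. Among 32851 mouse promoters of the same length, 23.3% held the PU.1-type letters, 2.98% the response element and 7.02% the activation site. Of the 32 members with a promoter entry, 17 held the PU.1-type letters, including all 6 members called higher, 3 held the response element (Fcgr4, Clec2d and Clec4b1) and 2 held the activation site (Fcgr1 and Clec4a2). A member was counted when any of its promoter entries held the letters, whereas the shares above are of single entries. A gene with several entries had more chances to be counted, so the member counts and these shares are not on the same base. Clec3b and Clec1a had no entry. Whether any factor bound these letters was not measured.

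Among the activating Fc gamma receptors, which use the gamma chain Fcer1g to set off phagocytosis and cytokine release when antibody is bound, all 3 genes were called higher. Fcgr4 encodes a receptor for IgG2a and IgG2b. It stood at 34.4, 39.2 and 26.3 CPM in the LC tumors (20, 50 and 31 UMIs) and at 154, 221 and 169 CPM in the IP + LC tumors (213, 379 and 233 UMIs). The groups lay far apart, and the log2 fold change was 2.45 ± 0.25 (SE, adjusted p = 0.000859 in edgeR's quasi-likelihood test), or 2.48 without LC replicate 1. Fcgr1, the high-affinity IgG receptor of monocytes and macrophages, stood at 37.9, 18.0 and 14.4 CPM against 110, 135 and 105 CPM. LC replicate 1 was the highest of its group and still lay well below every IP + LC tumor. The log2 fold change of Fcgr1 was 2.42 ± 0.33 (adjusted p = 0.00163), or 2.85 without LC replicate 1. Fcgr3, the low-affinity activating receptor, measured 184, 99.5 and 85.6 CPM against 210, 262 and 227 CPM. Its groups did not overlap, although LC replicate 1 came close to the lowest IP + LC tumor, and its log2 fold change was 0.94 ± 0.30 (adjusted p = 0.0426), or 1.34 without that library. The call of Fcgr4 and of Fcgr1 held in all 17 settings, whereas that of Fcgr3 was lost when LC replicate 2, LC replicate 3, IP + LC replicate 2 or IP + LC replicate 3 was left out.

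**Figure D2:**
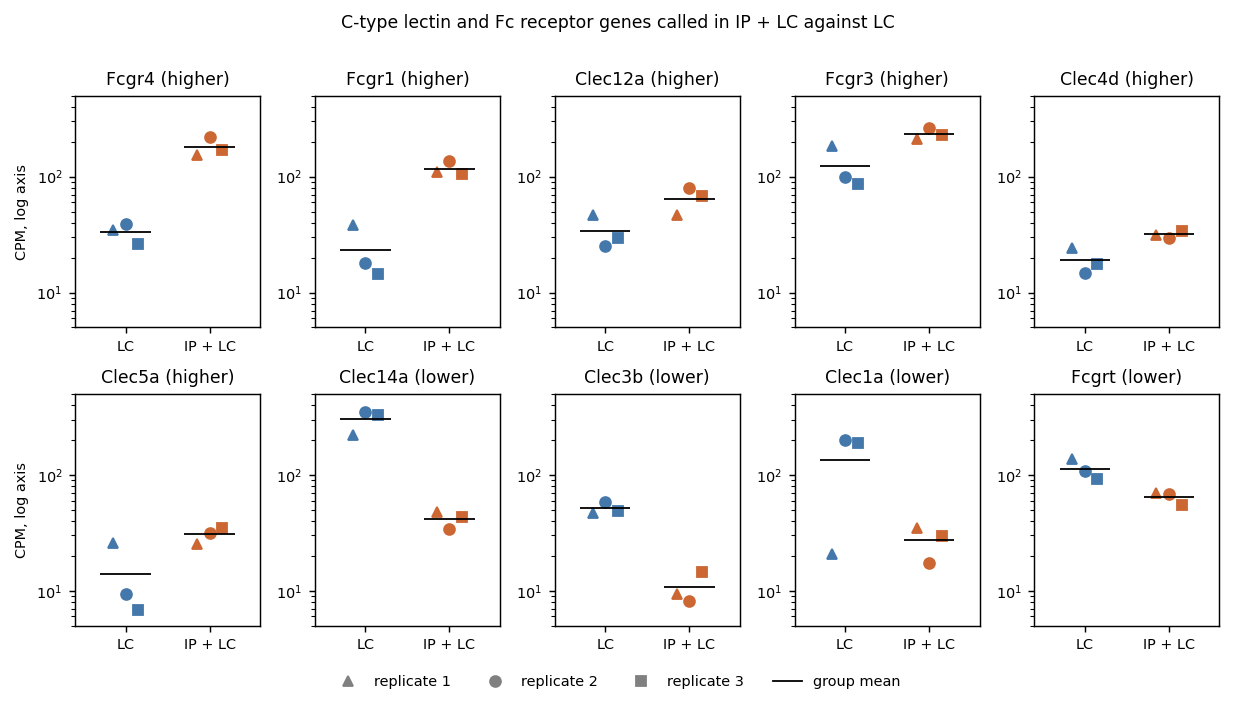
CPM on a log axis of the 10 called members in each of the 6 tumors, with the replicate number as the marker and a line at the group mean. Fcgr4 and Fcgr1 are separated without overlap, from 14.4 to 39.2 CPM in LC and from 105 to 221 CPM in IP + LC, while Clec1a in LC replicate 1 (20.7 CPM) lies among the IP + LC tumors.

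Fcgr2b, the inhibitory IgG receptor with an ITIM, was not called in the fit to all tumors. It measured 140, 67.4 and 50.0 CPM in LC and 128, 193 and 113 CPM in IP + LC, a log2 fold change of 0.80 ± 0.38 (adjusted p = 0.148). LC replicate 1 lay within the range of the IP + LC tumors and the other LC tumors lay below it. Fcer1g, the gamma chain itself, measured 401, 202 and 197 CPM against 338, 490 and 405 CPM, with the same arrangement of tumors (log2 fold change 0.63 ± 0.31, adjusted p = 0.159). Leaving out LC replicate 1 gave log2 fold changes of 1.32 for Fcgr2b (adjusted p = 0.000306) and 1.05 for Fcer1g (adjusted p = 9.92e-05). With all 6 tumors, both were also called when every gene with a UMI was tested (adjusted p = 0.0119 and 0.0478) and when at least 10 UMIs were required in every library (0.0978 and 0.0979), and Fcgr2b with limma voom (0.0862). Fcgr2b and Fcgr3 share nearly identical stretches over 47.2% and 39.2% of their transcripts, which cover 34.8% of the last 500 nucleotides of Fcgr2b and none of those of Fcgr3, so the split of reads between the pair is less certain in Fcgr2b.

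Within a tumor, UMIs of the activating Fcgr1, Fcgr3 and Fcgr4 together were 1.84, 2.33 and 2.53 times those of the inhibitory Fcgr2b in LC, and 3.69, 3.20 and 4.45 times in IP + LC. Every IP + LC tumor had a higher ratio than every LC tumor. The mean log2 ratio was 1.14 ± 0.237 in LC and 1.91 ± 0.238 in IP + LC (SD, n = 3), a difference of 0.76, and it stayed between 0.63 and 0.88 when single tumors were left out. This ratio rests on the same counts as the fold changes above and was not tested. With Fcgr3 as the only activating gene, the ratio to Fcgr2b overlapped between the groups. Fcgr3 had 107, 127 and 101 UMIs in LC and 289, 449 and 313 UMIs in IP + LC. Fcgr2b had 81, 86 and 59 UMIs against 177, 331 and 155 UMIs. The stretches shared with Fcgr3 also leave the Fcgr2b counts in these ratios less certain.

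Fcgrt, which encodes the neonatal Fc receptor that recycles IgG and albumin within cells, went the other way. It measured 136, 107 and 91.5 CPM in LC and 69.6, 68.9 and 55.2 CPM in IP + LC, without overlap (log2 fold change -0.78 ± 0.22, adjusted p = 0.0308, edgeR). Without LC replicate 1 the value was -0.61 (adjusted p = 0.00712), and the call was lost when any single IP + LC tumor was left out. Over all settings, the log2 fold change of Fcgrt stayed between -0.91 and -0.61. Fcer1a, the IgE-binding chain of mast cells and basophils, was near 0 in all tumors, with 0, 1 and 4 UMIs in LC and 3, 0 and 1 UMIs in IP + LC, and could not be tested. Of the markers of mast cells and basophils, Kit and Gata2, which other cells also express, summed to 65.4 to 147 CPM in LC and 24.5 to 39.9 CPM in IP + LC, and the other 9 genes to 27.4 to 36.2 CPM and 4.36 to 29.7 CPM. In bulk tissue, fewer cells of a type and less RNA per cell cannot be told apart.

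The activating lectins that signal through Fcer1g or Tyrobp had 6 members, of which 5 were tested, 2 were called higher and none lower. Clec5a, a Tyrobp-coupled receptor of monocytes, macrophages and neutrophils, measured 25.8, 9.40 and 6.78 CPM in LC and 25.4, 31.5 and 34.9 CPM in IP + LC. LC replicate 1 lay just above the lowest IP + LC tumor, and the log2 fold change was 1.33 ± 0.42 (adjusted p = 0.0435), or 1.91 without that library. Clec4d, a receptor for mycobacterial glycolipid, measured 24.1, 14.9 and 17.8 CPM against 31.2, 29.8 and 34.1 CPM without overlap (log2 fold change 0.80 ± 0.25, adjusted p = 0.0427, and 0.96 without LC replicate 1). Its partner Clec4e, or Mincle, which recognizes the same glycolipid and a protein of dying cells, measured 17.2, 14.1 and 14.4 CPM against 27.6, 25.7 and 18.2 CPM. The groups of Clec4e did not overlap either, but its log2 fold change of 0.67 had an adjusted p of 0.106 in edgeR's test, just past the limit. Without LC replicate 1 it was called, at 0.75 (adjusted p = 0.0476), as it was with library size scaling, with at least 10 UMIs in every library and without IP + LC replicate 3.

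Clec4n, or Dectin-2, a receptor for fungal mannans, was called only without LC replicate 1, with limma voom, or when every gene with a UMI was tested. It measured 164, 52.5 and 51.7 CPM in LC and 147, 151 and 152 CPM in IP + LC, so LC replicate 1 lay above all IP + LC tumors and 3.14 times above the mean of the other LC tumors. The log2 fold change was 0.80 ± 0.41 (adjusted p = 0.178), and 1.53 without this library (adjusted p = 1.98e-06). Clec4b1 was not called, at a log2 fold change of -0.76 (adjusted p = 0.267), and it shares 87.2% of its last 500 nucleotides with Clec4a2, so its counts are uncertain. Clec4b2 had at most 1 UMI in any tumor. None of Clec4b1, Clec4a3, Clec10a, Clec2d, Clec11a and Clec16a was called without LC replicate 1, with log2 fold changes of -0.595, 0.07, 0.32, -0.14, -0.01 and -0.82 in this order.

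Across the 23 tested members, LC replicate 1 was the highest LC tumor in 17, as it was in 41.7% of all tested genes. LC replicates 2 and 3 both lay below all IP + LC tumors in 12 members (34.3% of all tested genes), and in 7 of these LC replicate 1 was at or above the lowest IP + LC tumor (37.1% of all genes so placed). These 7 were Fcer1g, Clec4n, Fcgr2b, Clec4a2, Clec4a1, Clec12a and Clec5a. In Fcgr4, by contrast, LC replicate 1 was 1.05 times the mean of the other LC tumors. The part of this library's lower depth in these values was not tested beyond thinning all libraries to 592733 UMIs, after which 7 members were called (24.2% of all tested genes) and the calls of Clec12a, Clec4d and Clec5a were lost. In this order, their log2 fold changes ranged over all settings from 0.76 to 1.26, 0.63 to 0.96 and 0.97 to 1.91.

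Of the 4 inhibitory lectins, 2 were tested and 1 was called. Clec12a, an ITIM receptor of myeloid cells that senses uric acid crystals, measured 46.5, 25.1 and 29.7 CPM in LC and 46.4, 80.0 and 67.5 CPM in IP + LC. LC replicate 1 and IP + LC replicate 1 were nearly equal, and the log2 fold change was 1.00 ± 0.30 (adjusted p = 0.0359), or 1.26 without LC replicate 1. Clec4a2, or DCIR, measured 63.7, 35.3 and 32.2 CPM against 49.3, 63.6 and 79.2 CPM (log2 fold change 0.61, adjusted p = 0.167, and 0.93 with adjusted p = 0.00289 without LC replicate 1). It was also called when every gene with a UMI was tested, as was Clec4a1, which limma voom called too. Up to 85.4% of the last 500 nucleotides of Clec4a2 match other genes, Clec4b1 among them, so its counts are uncertain as well. The related Clec4a1 did not pass either (log2 fold change 0.70, adjusted p = 0.176, and 1.19 with adjusted p = 0.000858 without LC replicate 1), and Clec4a3 was level, at 41.3, 32.9 and 40.7 CPM against 42.1, 32.7 and 40.7 CPM. Calls of Clec12a, Clec4d and Clec5a were lost when LC replicate 2, LC replicate 3, IP + LC replicate 2 or IP + LC replicate 3 was left out, and that of Clec4d also without IP + LC replicate 1.

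Clec7a, or Dectin-1, the receptor for fungal beta-glucan, was outside the rule because the tables class it as a polymorphic pseudogene. It measured 80.9, 98.7 and 156 CPM in LC and 133, 212 and 181 CPM in IP + LC, and was not called (log2 fold change 0.64 ± 0.29, adjusted p = 0.132 in edgeR's test). The other gene left out by biotype, Clec2j, had a single UMI in 1 tumor.

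Clec9a, the receptor with which conventional dendritic cells type 1 sense the actin of dead cells, measured 15.5, 26.6 and 15.3 CPM in LC and 9.43, 3.50 and 15.3 CPM in IP + LC. LC replicate 3 and IP + LC replicate 3 were nearly equal, and the log2 fold change of -1.10 did not pass (adjusted p = 0.124). Without LC replicate 1 it was -1.20 (adjusted p = 0.0357). It was also called by limma voom, when every gene with a UMI was tested and without IP + LC replicate 3, and its log2 fold change ranged from -1.60 to -0.64 over all settings. Of 8 marker genes of these dendritic cells, 5 were tested, with 3 higher and 1 lower, and their summed level was 214 to 349 CPM in LC and 272 to 373 CPM in IP + LC. Clec9a overlaps Clec1b over 5.59% of its exonic bases and shares up to 20.6% of its last 500 nucleotides with it, so part of its reads may belong to that neighbor. Clec10a, a galactose-type lectin that takes up glycoproteins, was at 12.1, 8.62 and 3.39 CPM against 7.25, 9.92 and 5.08 CPM, but 99.4% of its last 500 nucleotides match Mgl2. Clec2d, a ligand of the inhibitory natural killer receptor Klrb1b, measured 75.8, 61.9 and 65.3 CPM against 50.0, 59.0 and 62.5 CPM (log2 fold change -0.23, adjusted p = 0.423).

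The 2 lectins of endothelium were both called lower. Clec14a, a surface protein of vessels that binds the matrix protein multimerin-2, measured 222, 351 and 328 CPM in LC and 47.9, 34.4 and 43.6 CPM in IP + LC. Every LC tumor lay far above every IP + LC tumor, with a log2 fold change of -2.85 ± 0.26 (adjusted p = 0.000716), and -3.01 without LC replicate 1. Clec1a, which recognizes melanin of fungal spores, measured 20.7, 200 and 186 CPM against 34.8, 17.5 and 29.8 CPM. LC replicate 1 lay within the range of the IP + LC tumors, at 0.107 times the mean of the other LC tumors. The log2 fold change of Clec1a was -2.36 ± 0.64 (adjusted p = 0.0249), or -2.83 without that library (adjusted p = 9.69e-08), and the call was lost when LC replicate 2 or IP + LC replicate 2 was left out. All 12 endothelial markers were also called lower, with a median log2 fold change of -1.69 and a summed level of 2066 to 3141 CPM in LC and 664 to 786 CPM in IP + LC. Per 1000 UMIs of these 12 markers, Clec14a stood at 108, 112 and 122 in LC and at 65.0, 51.8 and 55.4 in IP + LC, which did not overlap (0.504 times). Clec1a overlapped on this scale, at 10.0, 63.6 and 69.3 against 47.2, 26.4 and 37.9.

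Clec3b encodes tetranectin, a secreted protein that binds plasminogen. It measured 46.5, 58.8 and 49.2 CPM in LC and 9.43, 8.17 and 14.5 CPM in IP + LC, without overlap (log2 fold change -2.28 ± 0.27, adjusted p = 0.00116, edgeR), and -2.34 without LC replicate 1. Among 10 fibroblast markers, 6 were lower and 2 higher, with a summed level of 5307 to 7497 CPM in LC and 2559 to 2858 CPM in IP + LC, and the part of these cells in the value of Clec3b was not tested. Clec11a, a secreted growth factor, was not called (log2 fold change -0.21, adjusted p = 0.762). Clec16a, a protein of endosomes and mitophagy rather than a receptor, measured 13.8, 8.62 and 15.3 CPM against 5.08, 12.3 and 1.45 CPM (log2 fold change -0.89, adjusted p = 0.289). Its value moved from -0.45 without IP + LC replicate 3 to -1.86 without IP + LC replicate 2, where it was called (adjusted p = 0.0973).

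The 15 members that could not be tested had between 0 and 24 UMIs per tumor, and 8 of them had at most 1 UMI in every tumor. The platelet receptor for podoplanin, Clec1b, had 2, 17 and 24 UMIs in LC and 3, 1 and 5 UMIs in IP + LC, and it was called lower when LC replicate 1, IP + LC replicate 1 or IP + LC replicate 3 was left out and when every gene with a UMI was tested in all 6 tumors. Its ligand Pdpn was tested and not called. Up to 37% of the last 500 nucleotides of Clec1b match other genes, Clec9a among them, so the counts of Clec1b are uncertain. Markers of platelets had a summed level of 140 to 227 CPM in LC and 54.9 to 92.8 CPM in IP + LC. Clec2i had 4, 10 and 15 UMIs against 4, 13 and 7 UMIs, Clec12b had 1, 5 and 4 UMIs against 1, 0 and 1 UMIs, and Clec4g, a lectin of liver and lymph node sinus endothelium, had 2, 2 and 4 UMIs against 0, 1 and 0 UMIs. The rest were Clec2e, Clec2f, Clec2g, Clec2h, Clec2l, Clec2m, Clec4a4, Clec4b2, Clec4f, Clec18a and Fcer1a. Apart from Clec1b, none of the 15 was called in any setting. In CPM, Clec12b and Clec4g did not overlap between the groups, on 5 UMIs or fewer per tumor.

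Marker genes of other cells moved with these results, and their part in them was not tested. A list of 8 genes shared by leukocytes summed to 1449 to 1712 CPM in LC and 1685 to 2276 CPM in IP + LC, with 2 higher and none lower. Of 12 macrophage genes 4 were higher and 1, the abundant Lyz2, was lower. All 12 genes of alveolar macrophages were lower, from 1619 to 1968 CPM in LC to 231 to 460 CPM in IP + LC. Neutrophil genes summed to 925 to 2141 CPM and 337 to 424 CPM, with 4 of 8 tested lower and none higher, and monocyte genes had 4 higher and 3 lower of 9 tested. Of 7 genes of type 2 alveolar cells and 6 of airway epithelium, 6 each were lower, and no gene of these cell lists was at 0 in all tumors. The proliferation genes Mki67 and Top2a were higher (2.63 and 2.96 on the log2 scale), and their list, with the keratins Krt8 (not called) and Krt18 (lower), summed to 316 to 482 CPM in LC and 800 to 890 CPM in IP + LC.

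Per 1000 UMIs of the 8 leukocyte genes, Fcgr4 measured 20.1, 27.0 and 17.2 in LC and 91.7, 99.0 and 74.3 in IP + LC, 4.12 times higher. Fcgr1 measured 22.1, 12.4 and 9.42 against 65.4, 60.6 and 45.9 on the same scale, 3.91 times higher. Neither receptor overlapped between the groups on this scale. Fcgr3, Fcgr2b, Fcer1g, Clec4n, Clec4d and Clec5a overlapped between the groups on this scale, and Clec12a was separated only by 27.2 against 27.5. Of the 23 tested members, 3 did not overlap in the higher direction, where 8.19% of all tested genes did not, and 6 in the lower, where 31.4% did not. The 6 were Clec14a, Clec3b, Fcgrt, Clec2d, Clec9a and Clec16a. Clec2d measured 44.3, 42.7 and 42.7 per 1000 leukocyte UMIs in LC and 29.7, 26.4 and 27.4 in IP + LC. The counts changed with the scale. Per 1000 UMIs of the 12 macrophage genes, most of them Lyz2, which was itself lower in IP + LC, 14 members did not overlap in the higher direction and 2 in the lower, where 55.5% and 6.82% of all tested genes did not. On that scale Fcgr4 was 8.82 times and Fcgr1 8.43 times higher, Fcgr3, Fcgr2b, Fcer1g, Clec4n and Clec5a were 2.57 to 3.70 times higher without overlap, Clec2d was 1.37 times higher without overlap, and Fcgrt, Clec9a and Clec16a overlapped. Per endothelial UMIs, 16 members did not overlap in the higher direction and 1 in the lower, where 86.4% and 1.28% of all tested genes did not. No test was made on these ratios.

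**Figure D3:**
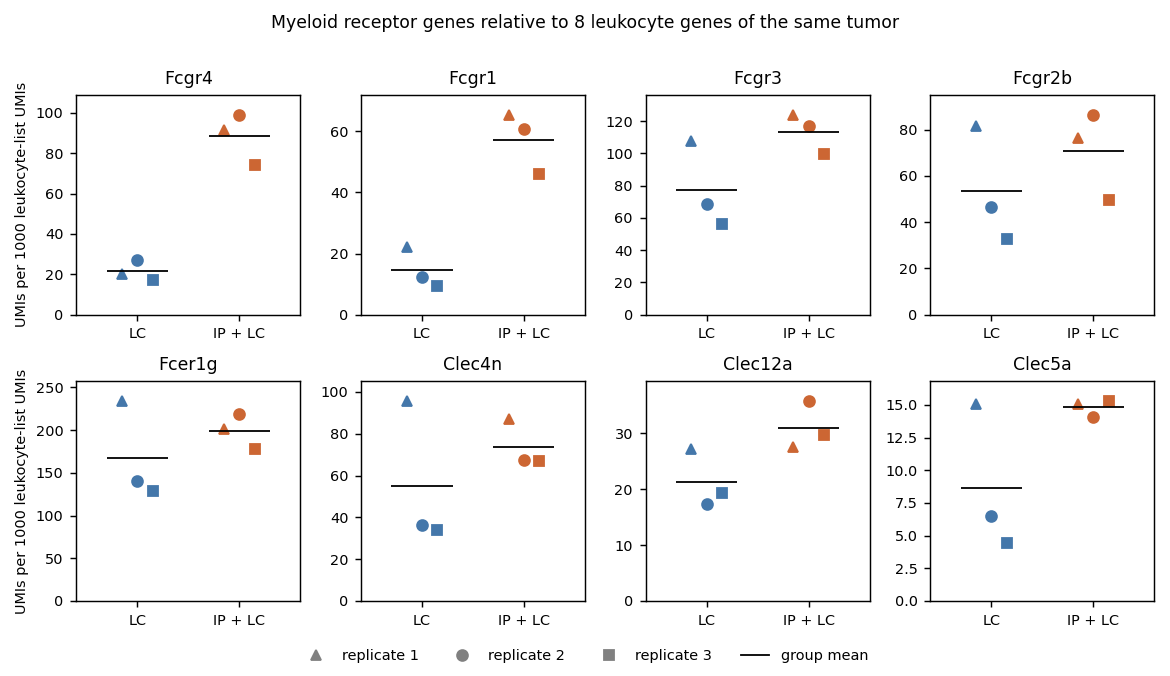
UMIs of 8 myeloid receptor genes per 1000 UMIs of the 8 leukocyte genes in the same tumor (y axis), by group, with the replicate number as the marker and a line at the group mean. Fcgr4 stays apart between the groups (17.2 to 27.0 in LC, 74.3 to 99.0 in IP + LC), while Fcgr2b, Fcer1g and Clec4n overlap through LC replicate 1.

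By position, the Fc receptor genes Fcgr2b, Fcgr4, Fcgr3 and Fcer1g lie within 275.7 kb at chr1:170958617-171234365 (GRCm38). All 4 had positive log2 fold changes, from 0.63 to 2.45, and 2 were called. The Clec4 cluster at chr6:122921848-123289870 (368 kb) held 9 members, of which 7 were tested, 6 were positive and only Clec4d was called. The lectins of the natural killer gene complex at chr6:128652416-129472779 (820.4 kb) were mixed. Of 12 members there, 4 were tested, Clec12a was higher and Clec1a was lower. Over all tested genes, 16.8% were called higher and 19.6% lower, and the median log2 fold change was 0.02. Whether neighboring genes changed together was not tested. Clec1a and Clec9a are 8 bases apart and both had negative values, and Clec7a, 9590 bases from Clec1a, had a positive one.

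**Figure D4:**
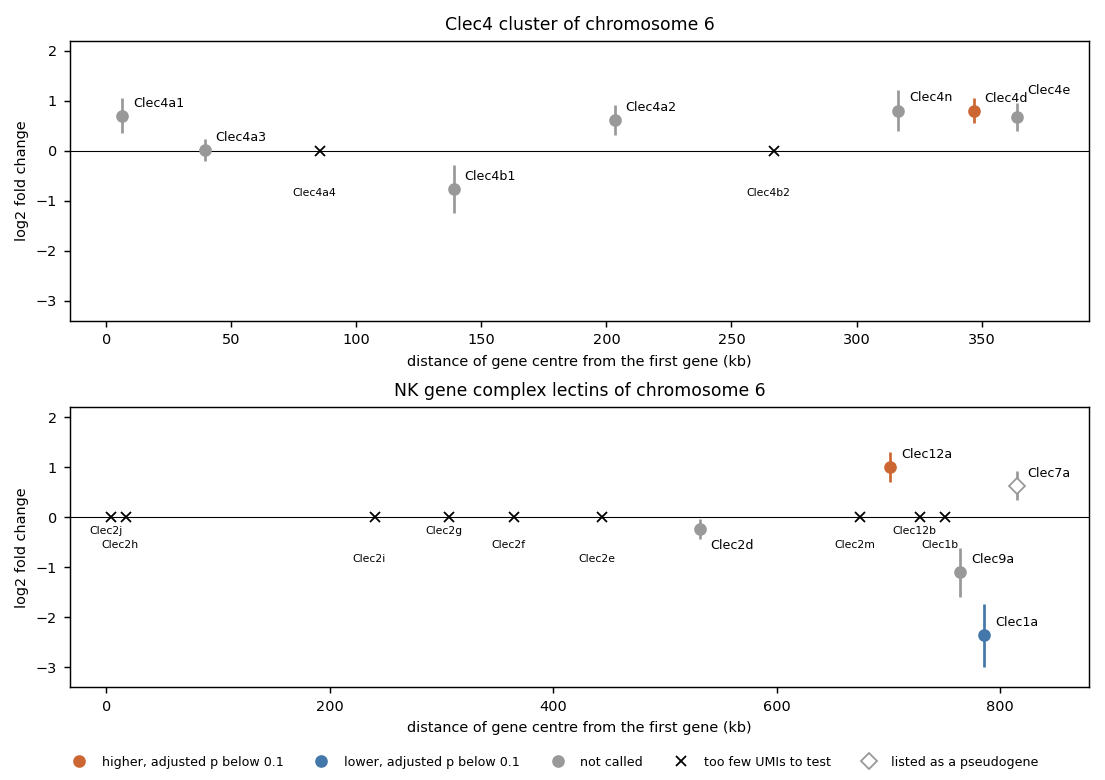
Log2 fold change (y axis, bars for the standard error) of the genes of 2 lectin clusters of chromosome 6 against the distance in kb of the gene centre from the start of the first gene, with crosses for genes with too few UMIs to test and an open diamond for Clec7a. In the lower panel Clec12a (1.00) and Clec1a (-2.36) lie in the same stretch with opposite signs.

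The genes with which these receptors signal were followed in lists that held no member. Of 110 partner and related genes, 78 were tested, 18 were called higher and 18 lower (23.1% each way, against 16.8% and 19.6% of all tested genes). Without LC replicate 1, 29 were higher and 24 lower, where 28.3% and 28.7% of all tested genes were called. The values of single partner genes below are those of the fit to all 6 tumors. Of the 11 ITAM adaptors and kinases, 3 were higher and none lower, with a median log2 fold change of 0.18. The count of 3 went to 0 in 4 of 16 alternatives: after thinning, or without LC replicate 3, IP + LC replicate 2 or IP + LC replicate 3. The kinases Src (38.6 ± 6.91 against 60.9 ± 4.12 CPM, SD, n = 3, adjusted p = 0.0393 in edgeR's test) and Lyn (78.8 ± 25.5 against 130.5 ± 14.7 CPM, adjusted p = 0.0692) were called. The adaptor Tyrobp, at 0.06 on the log2 scale (adjusted p = 0.873), and Syk, at -0.16 (adjusted p = 0.621), were not called. Tyrobp measured 478.7, 295.4 and 315.2 CPM in LC and 339.3, 392.2 and 401.5 CPM in IP + LC. LC replicate 1 thus lay above all IP + LC tumors, and the other LC tumors lay below them.

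Downstream of Syk, 17 scaffolds and effectors were tested, with 4 higher and 2 lower. These counts were 7 and 4 without LC replicate 1, the higher ones were 2 without LC replicate 3, and the lower ones were 1 without IP + LC replicate 1 or IP + LC replicate 2. Lcp2, or SLP-76 (log2 fold change 1.39, adjusted p = 0.00468), and the PI3-kinase subunit Pik3cd (1.07, adjusted p = 0.0133) were among the higher ones. The Ras activators Rasgrp2 (-1.79, adjusted p = 0.00137) and Rasgrp3 (-1.18, adjusted p = 0.0236), which platelets, lymphocytes and endothelium also use, were lower. In the CARD9 branch, through which the antifungal lectins reach NF-kB, 2 of 9 were higher, Nfkb1 (0.69, adjusted p = 0.0322) and Bcl10 (0.60, adjusted p = 0.072), but none was called in 3 of 16 alternatives: after thinning, or without IP + LC replicate 1 or IP + LC replicate 2. Card9 itself had 1 UMI in each LC tumor and 7, 4 and 6 UMIs in the IP + LC tumors, too few for the test.

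Among the 6 phosphatases and adaptors that bind ITIMs, 4 were higher and none lower, with a median log2 fold change of 0.91. The count of 4 fell to 1 without LC replicate 2 and to 2 without LC replicate 3 or after thinning. Dok1 measured 30.6 ± 21.3 CPM in LC and 77.3 ± 2.24 CPM in IP + LC (log2 fold change 1.47, adjusted p = 0.022), and the lipid phosphatase Inpp5d, or SHIP-1, measured 24.2 ± 5.24 and 49.0 ± 10.2 CPM (1.06, adjusted p = 0.0174). Both the ITAM and the ITIM lists held genes called higher, and no test compared the lists with each other.

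Of the C-type lectins outside the naming rule, 10 were lower and 2 higher of 18 tested, with a median of -0.67. The 10 lower calls ranged from 4 to 12 over the alternatives, with 5 in the fit with the replicate block, and the 2 higher calls went to 0 with at least 10 UMIs in every library and when LC replicate 2 or IP + LC replicate 2 was left out. The surfactant protein Sftpa1, a collectin of type 2 cells (-2.54, adjusted p = 0.00137), and thrombomodulin, Thbd, of endothelium (-2.40, adjusted p = 0.00137) had the smallest p-values among those that fell, whereas Ly75, the endocytic receptor DEC-205 (1.35, adjusted p = 0.0222), and Klrb1b (1.23, adjusted p = 0.05) rose. The mannose receptor Mrc1 was level at -0.02 (adjusted p = 0.974). Among other Fc receptors, 4 of 7 tested were lower (1 with at least 10 UMIs in every library) and 1 higher. These were led by Pigr, the epithelial transporter of IgA and IgM (-1.56, adjusted p = 0.00482), and the IgM receptor Fcmr of B cells (-1.82, adjusted p = 0.00613), while Trim21, the cytosolic antibody receptor, was higher (1.01, adjusted p = 0.0149). B cell genes were lower in 7 of 8.

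For the ligands, 3 immunoglobulin heavy chain genes of 8 were tested (Igha, Ighm and Ighd), none of them an IgG gene. Ighd was lower (-1.72, adjusted p = 0.00567, edgeR), and Igha and Ighm were not called. The IgG genes, whose products the Fc gamma receptors bind, had too few UMIs to test. Ighg2b had 2, 5 and 1 UMIs in LC and 3, 18 and 11 in IP + LC, and Ighg2c 1, 0 and 2 against 0, 6 and 7. Ighg1 had 0, 0 and 2 against 0, 3 and 8, and Ighg3 0, 1 and 0 against 2, 1 and 2. Of 8 tested genes in the list of lectin ligands, Actg1 (0.87, adjusted p = 0.0164) and Vim (0.74, adjusted p = 0.0643) were higher, and 1 call was left when LC replicate 2, LC replicate 3 or any IP + LC tumor was left out, with upper quartile scaling and at the limit of 0.05. Mmrn2 (-0.91, adjusted p = 0.0853), the multimerin-2 that Clec14a binds, was lower, as was Klrb1c (-0.95, adjusted p = 0.0707), a natural killer receptor that was placed in this list although a lectin partner of it is not established. This list held no lower call in 10 of 16 alternatives. Actb was not called, and LC replicate 1 set its spread.

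**Figure D5:**
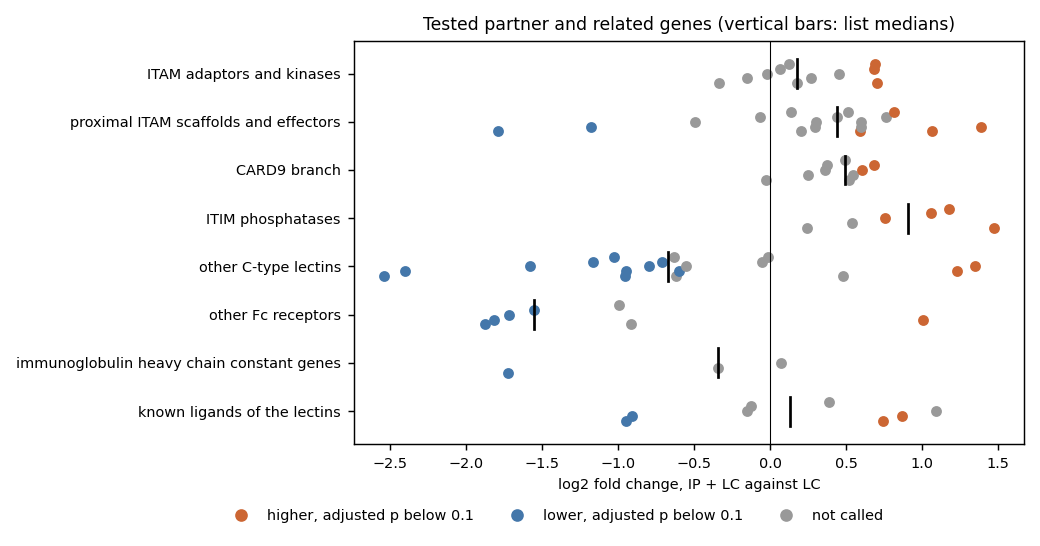
Log2 fold change (IP + LC against LC, x axis) of each tested gene in 8 lists of partner and related genes, colored by the call at an adjusted p below 0.1, with a vertical bar at the median of each list. The list medians run from -1.56 in the other Fc receptors to 0.91 in the ITIM phosphatases.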

How the data were processed

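Tumor RNA of 3 LC and 3 IP + LC mice was sequenced by bulk RNA barcoding. Per the labels, the authors used UMI-tools 1.1.1, Trim Galore 0.6.7, HISAT2 2.2.1 and featureCounts 2.0.1 on GRCm38, and deposited raw UMI counts for each gene. The annotation release and the use of strand are not given in the sources used here, so overlapping and antisense genes are uncertain. Gene positions came from GENCODE M21, which held all 31130 identifiers, and promoters from RefSeq on GRCm38.p6. Near-identical stretches were searched with blastn 2.17.0 (at least 81 nucleotides and 95% identity). UMIs remove PCR copies, and a low count is limited by the molecules sampled.

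In R 4.3.3, edgeR 4.0.16 kept genes by filterByExpr (minimum count 10 in at least 3 libraries, minimum total 15), scaled them by TMM and compared the groups by the quasi-likelihood test over all 6 tumors, with Benjamini-Hochberg adjustment and a limit of 0.1. The test was checked on simulated data. Alternatives were other scalings and filters, DESeq2 1.42.0, limma voom 3.58.1, a replicate block, a limit of 0.05, thinning, and each tumor left out. The members, roles, lists and motifs were chosen with earlier results of these data known. By the rule for names, every tested member is given, with all 6 values for called members and the most abundant member of each role, and up to 2 called genes with the smallest p-values per list and direction. Values of Clec7a, Clec4e, Tyrobp, Syk, Mrc1, Card9 and the untested members were added to these. Each sample is 1 tumor, and a p-value sets the group difference against the spread between these tumors. The test estimates this spread partly from other genes.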

Additional observations from a re-analysis of the deposited data

How the results depend on the processing

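The counts of 6 members called higher and 4 called lower were the same with DESeq2's size factors, upper quartile scaling, the replicate block and the limit of 0.05. Of the 10 calls, 9 were kept by the DESeq2 Wald test (29% of all tested genes called) and all 10 by limma voom, which called 14 (38.7%). Requiring 10 UMIs in every library tested 17 members and called 12 (40.4% of all tested genes), gaining Clec4e, Fcer1g and Fcgr2b, while Clec5a was then not tested. Testing every gene with a UMI gave 11 members higher (7.87% of all genes tested so), and thinning gave 3 (10.5%). Leaving out single tumors gave 2 to 12 members higher (7.61% to 28.3% of all tested genes), 8 to 29 partner genes higher and 10 to 24 lower, against 18 and 18. Thinning gave 9 partner genes higher and 11 lower. Scaling by library size alone moved the median of all tested genes from 0.02 to 0.18 and added Clec4e. The replicate numbers are not said to pair the mice, and deviations of equal numbers correlated at 0.026, -0.12 and 0.112, with replicates 1 and 2 of LC correlating better with another number. The replicate block called 3410 genes instead of 4088, and the same 10 members. Clec4a3 and Clec10a, at 0.01 ± 0.21 and 0.03 ± 0.48 (log2 fold change, SE) in the fit to all 6 tumors and never called, changed sign. Clec4a3 took -0.00011 with DESeq2's size factors, -0.0458 with upper quartile scaling, -0.000738 in the DESeq2 Wald test and -0.0886 after thinning, and ranged from -0.0975 to 0.14 without single tumors. Clec10a took -0.0289 with upper quartile scaling, -0.0409 in the Wald test, -0.00567 with the replicate block and -0.0421 after thinning, and ranged from -0.40 to 0.32 without single tumors. Clec11a ranged from -0.46 to 0.16, the positive value without IP + LC replicate 2. The cause of these changes was not tested. Depth limits the 15 untested members and genes near 10 UMIs.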
